A study of Mus musculus with 8 samples.

Results

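The genes described here are 10 components of the programme that gives epithelial cells their character. They are the ETS transcription factors Ehf and Elf3, the grainyhead factors Grhl1 and Grhl2, the zinc-finger factor Ovol1, the splicing regulators Esrp1 and Esrp2, the membrane protease St14 (matriptase) and its inhibitors Spint1 and Spint2. They were picked by gene symbol through their Entrez identifiers. No measured value entered that rule, but the genes were chosen with earlier results of these data known. All 10 had a row among the 18631 genes of each library, and 6 of them (Ehf, Elf3, Esrp2, Spint1, Spint2 and St14) reached the mean level of 1 FPKM at which a gene was tested. FPKM is the number of sequenced fragments scaled to transcript length and to the mapped fragments of the library, so levels of different genes can be set side by side per length.

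Poly(A) RNA was sequenced from 2 mouse kidney epithelial cell lines, pkd1(PH), which is Pkd1+/- heterozygous, and null(PN), which is Pkd1-/- null. Pkd1 encodes polycystin-1, whose loss causes polycystic kidney disease. Each line received either DMSO, the solvent, or the covalent CDK7 inhibitor THZ1 at 50 nM for 6 h, which gave 4 groups of 2 libraries. The medium of all groups was DMEM-F12 with 3% fetal bovine serum, insulin-transferrin-selenium, interferon gamma (IFNγ), T3 and antibiotics. Each genotype was present as 1 line, so genotype and line cannot be told apart. The labels do not say that the 2 libraries of a group came from separate cultures, and p-values therefore measure only the spread between these libraries, which may be technical. In such bulk RNA, fewer cells expressing a gene and less of its RNA per cell cannot be told apart. FPKM is relative to the library and does not give total RNA per cell. A gene said to rise or fall with THZ1 did so relative to the other RNA of its library.

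In epithelia, ELF3 and EHF are ETS factors that bind a GGAA core, and the grainyhead and OVOL factors maintain junctional and adhesion genes and restrain mesenchymal factors such as ZEB1. ESRP1 and ESRP2 direct the epithelial choice of alternative exons in transcripts such as Fgfr2, Cd44 and Ctnnd1. Matriptase, encoded by St14, is a serine protease of the epithelial surface that activates PRSS8, PAR2 (F2rl1) and pro-HGF, and the Kunitz-type inhibitors HAI-1 (Spint1) and HAI-2 (Spint2) hold it in check.

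The step between low FPKM values gave an estimated depth of 17.6 to 18.4 M fragments per library. The replicates of a group correlated at 0.997 to 0.998 across genes on the log2(FPKM + 1) scale. Genes above 0 numbered 14007 to 15439, with the highest counts in replicate 1 of null DMSO and replicate 2 of null THZ1 (14900). Pkd1 itself was at 4.58 and 5.30 FPKM in the heterozygous DMSO libraries and at 1.69 and 1.32 in the null DMSO libraries. The 10 kidney tubule markers summed to 1321 to 1435 FPKM in heterozygous DMSO, 1387 to 1428 in heterozygous THZ1, 1203 to 1220 in null DMSO and 1146 to 1150 in null THZ1. The sum covers opposite differences, since under DMSO 6 of the 8 tested markers were lower in the null line (median log2 difference -0.53) and 2 higher. Krt8, for example, was at 313 and 339 FPKM in the heterozygous and 184 and 186 in the null DMSO libraries, while Krt7 was at 277 and 306 against 396 and 406. Cdh1 (E-cadherin) and Epcam were below 1 FPKM in every library. The 9 fibroblast and mesenchyme markers summed to 15.6 to 16.7 FPKM in the heterozygous DMSO libraries, 15.3 to 15.4 in the heterozygous THZ1 libraries, 33.7 to 33.8 in the null DMSO libraries and 39.9 to 43.0 in the null THZ1 libraries, with 7 of the 9 below 1 FPKM in every group. The part of both lists in the results was not tested. The 6 endothelial markers summed to at most 0.22 FPKM and the 7 blood and immune markers to at most 4.85 FPKM, with Adgre1, Cd3e and Hbb-bs at 0 in all 8 libraries. Most of the latter sum was Cd68, the only 1 of the 7 that was tested. It was at 2.85 and 2.64 FPKM in heterozygous DMSO, 2.09 and 1.72 in null DMSO and 4.82 and 3.94 in null THZ1. Cd68 was called lower in the null line under DMSO (log2 difference -0.37) and higher with THZ1 in the null line (0.89).

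The 10 genes spanned levels from 152 FPKM to 0. In the heterozygous DMSO libraries the order of mean levels was Spint2 (141 FPKM), Ehf (39.4), Spint1 (24.5), Elf3 (12.9), St14 (8.97), Esrp2 (5.94), Grhl1 (1.04) and Ovol1 (0.42), with Grhl2 and Esrp1 at or near 0. None of these neighbours overlapped in their libraries down to Ovol1. In the null DMSO libraries the order changed to Spint2 (120 FPKM), St14 (16.1), Elf3 (13.7), Esrp2 (5.31), Ehf (4.03), Spint1 (3.61), Grhl1 (0.355) and Ovol1 (0.295). Ehf and Spint1 thus moved from the second and the third place to the fifth and the sixth. Grhl1 and Ovol1 overlapped there, at 0.43 and 0.28 FPKM against 0.36 and 0.23.

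**Figure D1:**
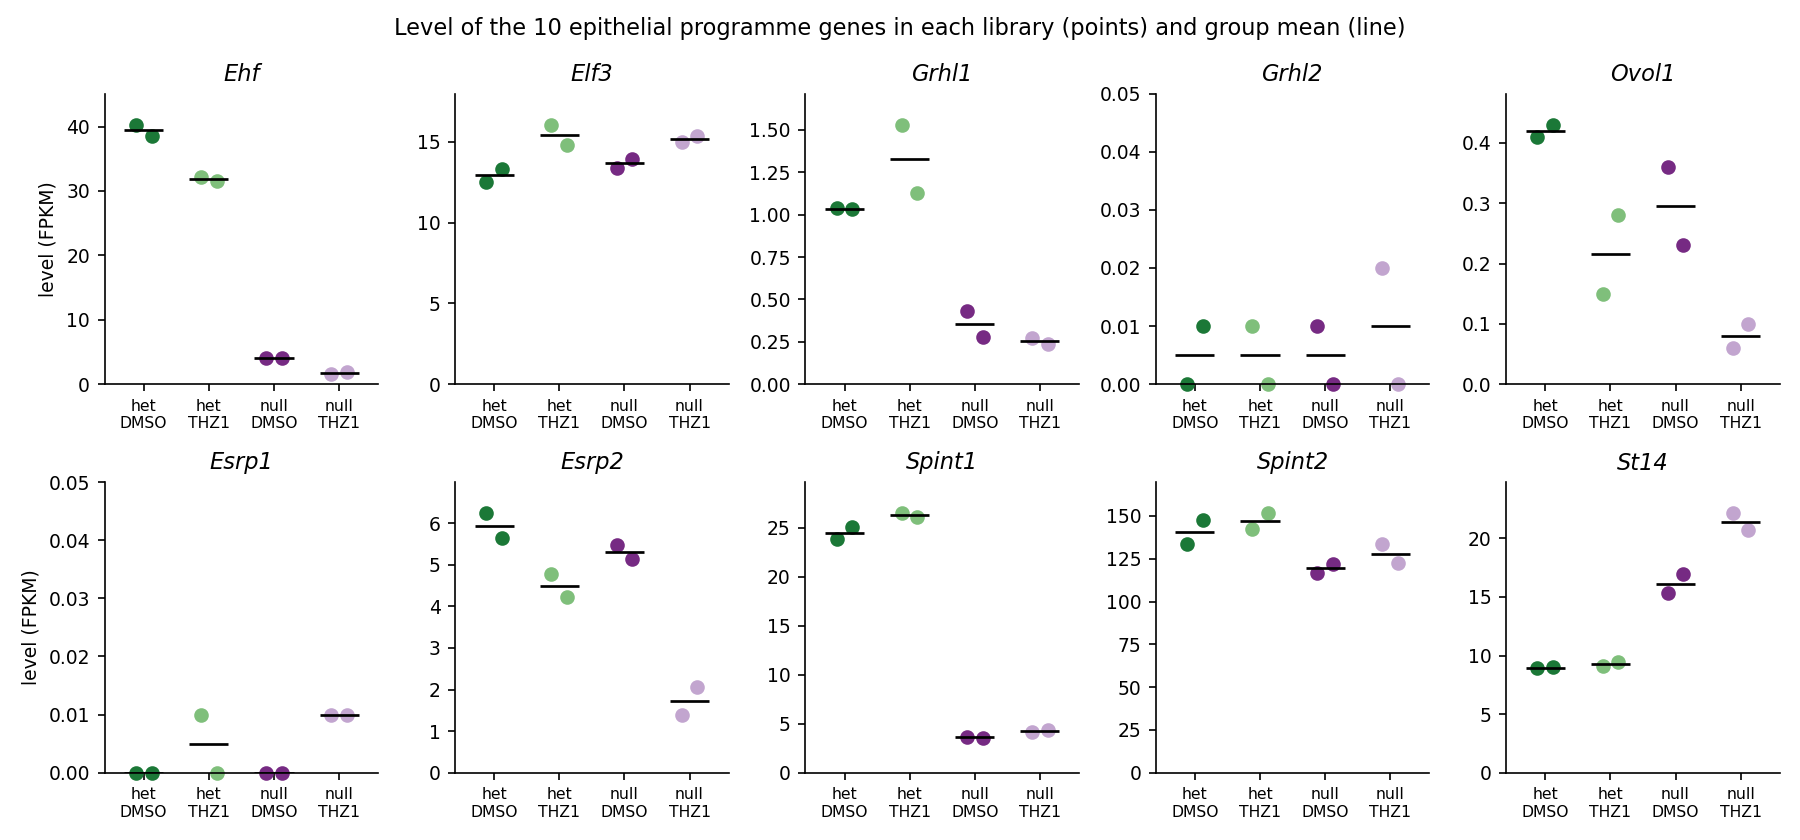
Level in FPKM (vertical axis, from 0, a separate scale for each gene) of the 10 genes in the heterozygous (green) and null (purple) lines under DMSO (dark) and THZ1 (light). Points are libraries and lines are means of 2. Ehf and Spint1 are far lower in all 4 null libraries, St14 is higher in them, and Esrp2 is lowest in the 2 null THZ1 libraries.

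Between the lines under DMSO, Ehf and Spint1 were much lower in the null line, Spint2 slightly lower, and St14 higher. Elf3 and Esrp2 did not pass the test on the deposited scale, but Elf3 was called higher in the null line with 2 of the 3 other scalings tried. Differences are given on the log2(FPKM + 1) scale, which understates those of low genes, from a limma fit across all tested genes. The call threshold was a Benjamini-Hochberg adjusted p of 0.05. By that rule 4 of the 6 tested genes were called, 1 higher and 3 lower, where 70% of all 10731 tested genes were called (29% higher and 41% lower). The share called was thus near that of all genes, and what set Ehf and Spint1 apart was the size of the difference. Ehf had the 4th lowest and Spint1 the 8th lowest value of all tested genes in this comparison, while St14 was the 579th highest.

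Under THZ1 in the heterozygous line, 3 of the 6 were called, Ehf and Esrp2 lower and Elf3 higher, against 22.4% of all tested genes (12.2% higher and 10.3% lower). The count was 0 when heterozygous DMSO replicate 1 or heterozygous THZ1 replicate 1 was left out and 1 without heterozygous THZ1 replicate 2. In the null line, 4 of the 6 were called, Ehf and Esrp2 lower and St14 and Spint1 higher, against 75.7% of all tested genes (24.6% higher and 51.1% lower). The response to THZ1 itself differed between the lines for 3 of the 6, Ehf, Esrp2 and St14, against 60.2% of all tested genes (15.1% with a higher and 45.1% with a lower response in the null line). Between the lines under THZ1, 5 of the 6 were called, St14 higher and Ehf, Spint1, Esrp2 and Spint2 lower, against 83.2% of all tested genes (25.1% higher and 58.1% lower), although Spint2 turned to the other direction with 2 of the 3 other scalings tried. The median difference of the 6 was -0.18 between the lines under DMSO (-0.07 over all tested genes), 0.05 for THZ1 in the heterozygous line (0.01) and 0.12 for THZ1 in the null line (-0.17).

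**Figure D2:**
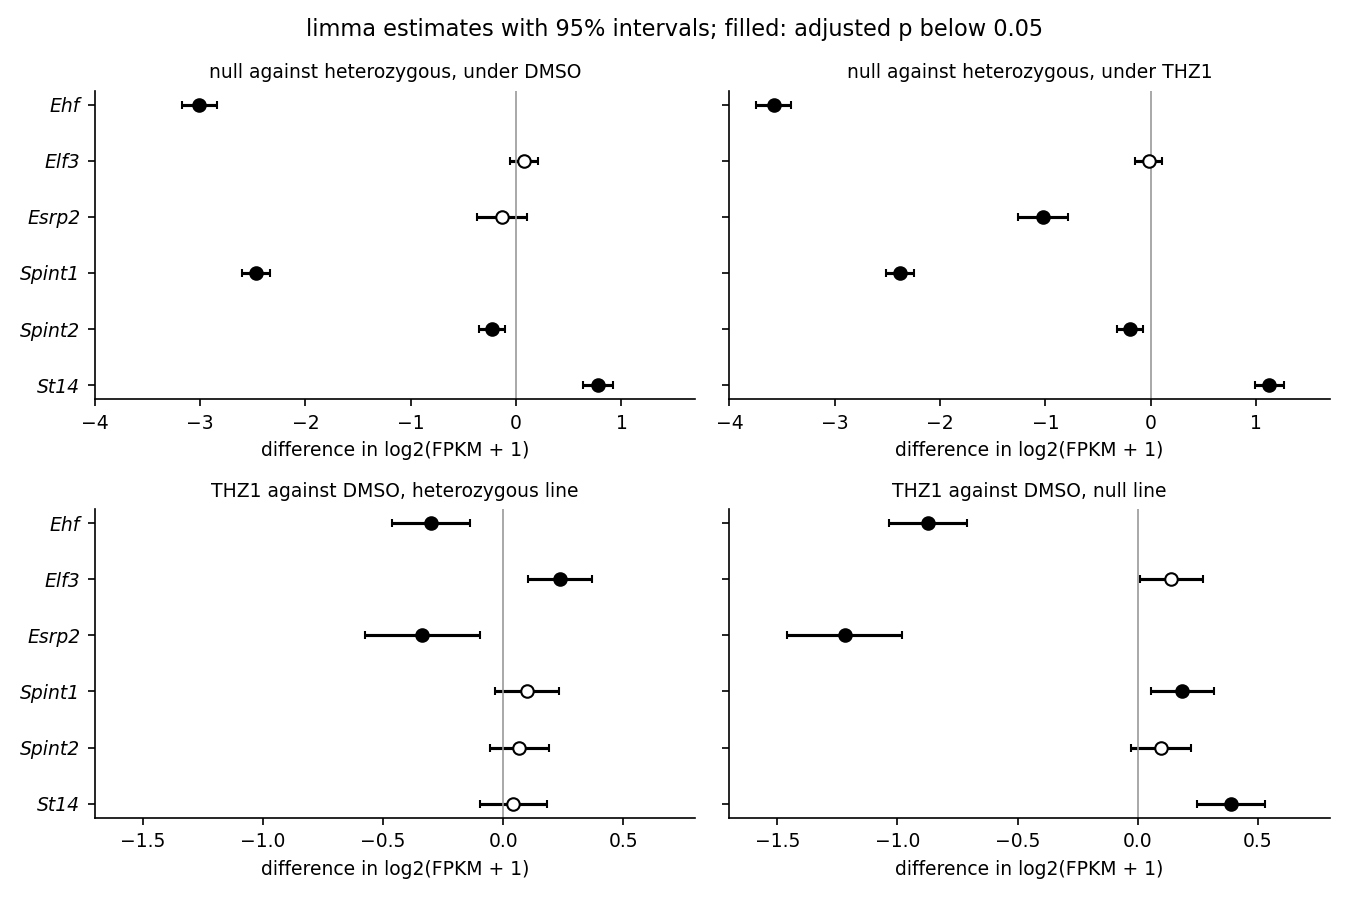
Difference in log2(FPKM + 1) (horizontal axis) of the 6 tested genes in 4 comparisons. Points are limma estimates, bars are 95% intervals and filled points have an adjusted p below 0.05. Ehf and Spint1 lie at -3.01 and -2.47 between the lines under DMSO, Esrp2 falls by 1.22 with THZ1 in the null line, and the call of Spint2 under THZ1 turns direction with 2 other scalings.

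Ehf (Entrez 13661), an ETS factor of glandular and ductal epithelia, lies on chromosome 2 at 103263431 to 103303275 (GRCm38). Its level was 40.3 and 38.6 FPKM in the heterozygous DMSO libraries, 32.2 and 31.5 in the heterozygous THZ1 libraries, 4.06 and 4.0 in the null DMSO libraries and 1.54 and 1.97 in the null THZ1 libraries. All heterozygous libraries were above all null libraries, and in each line both THZ1 libraries were below both DMSO libraries. The mean level was 9.78-fold lower in the null line under DMSO and 18.2-fold lower under THZ1. On the log2 scale the difference, null minus heterozygous, was -3.01 ± 0.07 under DMSO (limma estimate ± SE, adjusted p = 4.92e-12) and -3.58 ± 0.07 under THZ1 (limma, adjusted p = 9.93e-13), where only 1 tested gene had a lower value. In rank, Ehf moved from above 87.6% of the listed genes in the heterozygous DMSO group to above 50.9% in the null DMSO group.

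THZ1 lowered Ehf in both lines, but not by the same amount. In the null line Ehf fell by 0.87 ± 0.07 on the log2 scale (limma, adjusted p = 3.12e-07), which was a 2.30-fold lower mean level. In the heterozygous line it fell by 0.30 ± 0.07 (limma, adjusted p = 0.0143). That smaller fall was not called when heterozygous DMSO replicate 1, heterozygous THZ1 replicate 1 or heterozygous THZ1 replicate 2 was left out (adjusted p = 0.0968, 0.0716 and 0.0947). The difference between the responses was -0.57 ± 0.11 (limma interaction, adjusted p = 0.000514). The lowest estimate rested on about 121 fragments, in null THZ1 replicate 1.

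Elf3 (Entrez 13710), on chromosome 1 at 135253574 to 135258472, the other ETS factor of the set, varied far less across the groups. It was at 12.6 and 13.3 FPKM in the heterozygous DMSO libraries, 16.1 and 14.8 in the heterozygous THZ1 libraries, 13.4 and 14.0 in the null DMSO libraries and 15.0 and 15.4 in the null THZ1 libraries. Between the lines under DMSO the difference was 0.08 on the log2 scale, with a 95% interval of -0.06 to 0.21 (limma, adjusted p = 0.281). It was called with median-of-ratios scaling (0.15, adjusted p = 0.0467) and upper-quartile scaling (0.22, adjusted p = 0.0214) and not with library totals (0.11, adjusted p = 0.129). Under THZ1 the libraries of the 2 lines overlapped, and the estimate of -0.02 (95% interval -0.15 to 0.11) became 0.27 with median-of-ratios and 0.28 with upper-quartile scaling, both called (adjusted p = 0.000994 and 0.00299). With THZ1 Elf3 rose by 0.24 ± 0.06 in the heterozygous line (limma, adjusted p = 0.0164), a call lost without heterozygous DMSO replicate 1 (adjusted p = 0.103) or heterozygous THZ1 replicate 1 (adjusted p = 0.164). In the null line the difference was 0.14 ± 0.06 and missed the threshold (limma, adjusted p = 0.0516), which it passed with libraries scaled by the median of ratios (adjusted p = 0.00014) or the upper quartile (0.00482) and without either heterozygous DMSO library (0.0466 and 0.0469).

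The balance of the ETS pair therefore turned over between the lines. The ratio of Ehf to Elf3 within a library was 3.21 and 2.90 in the heterozygous DMSO libraries and 2.01 and 2.13 in the heterozygous THZ1 libraries. In the null line it was 0.303 and 0.287 under DMSO and 0.103 and 0.128 under THZ1. Ehf was the more abundant of the pair per length in every heterozygous library, and Elf3 in every null library. A ratio within a library does not move with the scaling between libraries.

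The grainyhead factors were low. Grhl1 (Entrez 195733, chromosome 12 at 24572232 to 24617391) was at 1.04 and 1.03 FPKM in the heterozygous DMSO libraries, 1.53 and 1.13 under THZ1, 0.43 and 0.28 in the null DMSO libraries and 0.27 and 0.24 in the null THZ1 libraries. The heterozygous libraries did not overlap with the null ones, and the mean level was 2.92-fold lower in the null line under DMSO and 5.22-fold lower under THZ1. Its mean over the 8 libraries, 0.744 FPKM, left it out of the main test. In a fit with no filter on low values, where 46.4% of 17312 genes were called between the lines under DMSO, the difference was -0.59 ± 0.09 (limma, adjusted p = 0.00215). The same fit gave -0.89 ± 0.09 between the lines under THZ1 (limma, adjusted p = 0.000197, with 56.4% of genes called) and called no THZ1 response in either line (adjusted p = 0.267 and 0.382).

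Grhl2 (Entrez 252973, chromosome 15 at 37232821 to 37363569), the grainyhead factor best known from kidney collecting duct and other simple epithelia, reached at most 0.02 FPKM in any library. That is below the 0.033 to 0.034 FPKM that 3 fragments would give, so no level could be read for it in either line. Its paralogue Grhl3, from the list of related factors, had group means of 0.09 to 0.15 FPKM.

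Ovol1 (Entrez 18426, chromosome 19 at 5549137 to 5560575), a zinc-finger repressor, was at 0.41 and 0.43 FPKM in the heterozygous DMSO libraries, 0.15 and 0.28 under THZ1, 0.36 and 0.23 in the null DMSO libraries and 0.06 and 0.10 in the null THZ1 libraries. In both lines the THZ1 libraries were below the DMSO ones, and the estimated number of fragments ranged from 3.1 to 23.6. Without the filter on low values, Ovol1 fell by 0.26 ± 0.07 with THZ1 in the null line (limma, adjusted p = 0.0158, with 49.6% of 17312 genes called) and differed by -0.23 ± 0.07 in the heterozygous line, which was not called (limma, adjusted p = 0.0922, with 7.56% of genes called). The gene overlaps Ap5b1 on the genome, which fell by 1.44 with THZ1 in the null line, and since the sources used here do not state that strand was used in counting, reads of overlapping genes may not be separable. Ovol2, its paralogue, had a mean of 0 FPKM in all 4 groups.

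Of the splicing regulators, Esrp2 carried all of the measurable signal. Esrp1 (Entrez 207920, chromosome 4 at 11331933 to 11386783) was listed at 0 or 0.01 FPKM in every library, below the 0.044 to 0.046 FPKM that 3 fragments would give. Esrp2 (Entrez 77411, chromosome 8 at 106130319 to 106137193) was at 6.24 and 5.64 FPKM in the heterozygous DMSO libraries and 4.77 and 4.23 in the heterozygous THZ1 libraries. In the null line it was at 5.48 and 5.14 under DMSO and at 1.39 and 2.07 under THZ1. The 2 null THZ1 libraries, with about 86.6 and 129 fragments, stood well below the other 6.

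Esrp2 did not differ between the lines under DMSO beyond the spread of the libraries (log2 difference -0.14, 95% interval -0.38 to 0.10, limma adjusted p = 0.284). With THZ1 it fell by 1.22 ± 0.11 in the null line (limma, adjusted p = 5.07e-07), a 3.07-fold lower mean level. In the heterozygous line it fell by 0.34 ± 0.11 (limma, adjusted p = 0.0461), and that call was lost in 11 of 18 alternatives, among them leaving out any of the 4 heterozygous libraries. The responses of the lines differed by -0.88 ± 0.16 (limma interaction, adjusted p = 0.000384), and under THZ1 the difference between the lines was -1.02 ± 0.11 (limma, adjusted p = 1.6e-06). Esrp2 overlaps Nfatc3 on the genome, whose level in the null line changed little with THZ1 (log2 difference -0.02, limma adjusted p = 0.76).

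The protease system held the second large difference between the lines. Spint1 (Entrez 20732, chromosome 2 at 119237360 to 119249535), which encodes the membrane-bound inhibitor HAI-1, was lower in the null line, while St14, which encodes its target matriptase, was higher. Spint2, which encodes HAI-2 and was the most abundant of the 10 genes, differed far less than Spint1. The promoters of the 2 inhibitor genes are shown because the genes encode inhibitors of the same protease and yet differed so unequally between the lines. Whether the promoter sequences bear on that was not tested. The 250 bases before the RefSeq start (GRCm38.p6) are given on the gene's strand, 5′ to 3′, with GGAA, the ETS core, and CACCTG, an E-box bound by ZEB and SNAI repressors, in capitals on either strand (TTCC and CAGGTG are their reverse complements). The Spint1 stretch is chr2:119237110-119237359, plus strand, and the Spint2 stretch is chr7:29281978-29282227, minus strand. The start used for Spint2 lies inside its gene span, which reaches 29282059 at the 5′ end. The last part of the Spint2 stretch is therefore within the gene, whereas the Spint1 stretch ends where its gene span begins.
Spint1: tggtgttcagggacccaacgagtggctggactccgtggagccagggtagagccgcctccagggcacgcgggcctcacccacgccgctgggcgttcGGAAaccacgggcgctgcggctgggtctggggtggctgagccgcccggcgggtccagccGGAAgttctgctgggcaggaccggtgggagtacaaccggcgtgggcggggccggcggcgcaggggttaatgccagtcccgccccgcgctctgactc
Spint2: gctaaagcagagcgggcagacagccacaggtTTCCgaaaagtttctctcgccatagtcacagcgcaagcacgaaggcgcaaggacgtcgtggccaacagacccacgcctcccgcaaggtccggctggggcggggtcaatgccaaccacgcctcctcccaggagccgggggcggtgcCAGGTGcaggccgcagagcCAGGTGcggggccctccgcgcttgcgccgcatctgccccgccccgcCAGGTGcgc

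In the full 300-base windows, from 250 bases before to 50 after the start, Spint1 had 3 GGAA cores and no CACCTG, and Spint2 had 1 GGAA core and 3 CACCTG boxes. The GGAA cores of Spint1 began 155 and 96 bases before the start and 44 bases after it. The second of them is part of the longer ETS sequence CCGGAAGT, which 3.9% of the 32851 RefSeq promoters of the same length held, on either strand. GGAA alone was in 96.0% of them, with a median of 3, and each CCGGAAGT contains it. CACCTG, present in 20.2% of promoters, began 74, 55 and 9 bases before the start used for Spint2. All 3 boxes lie inside the Spint2 gene span, since that start is within it. Neither window held the grainyhead sequence AACNNGTT, which was in 4.2% of promoters. Both windows were rich in CpG, with 28 in Spint1 and 26 in Spint2 against a median of 7. The shares of promoters with a sequence were taken over all promoters and not over promoters of like CpG content. Elf3 and Grhl1 were the other members with an entry. The Elf3 window held 4 GGAA cores and 1 CACCTG, and the 2 Grhl1 windows held 1 and 7 GGAA cores. These matches describe letters in the windows and are not measured binding sites.

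Spint1 was at 23.9 and 25.1 FPKM in the heterozygous DMSO libraries, 26.5 and 26.1 in the heterozygous THZ1 libraries, 3.66 and 3.55 in the null DMSO libraries and 4.16 and 4.32 in the null THZ1 libraries. All 4 null libraries were below 5 FPKM and all 4 heterozygous libraries above 20. The mean level was 6.79-fold lower in the null line under DMSO (log2 difference -2.47 ± 0.06, limma adjusted p = 4.7e-12) and 6.20-fold lower under THZ1 (-2.38 ± 0.06, limma adjusted p = 3.93e-12). The null line still gave about 145 to 173 fragments per library. With THZ1 Spint1 rose by 0.19 ± 0.06 in the null line (limma, adjusted p = 0.0139), a call lost with library-total scaling (adjusted p = 0.117) and without null DMSO replicate 2 (0.0657) or null THZ1 replicate 2 (0.0546). In the heterozygous line the difference was 0.10 (95% interval -0.03 to 0.23, limma adjusted p = 0.258), and the responses of the lines differed by 0.09 (95% interval -0.10 to 0.27, adjusted p = 0.398). With median-of-ratios scaling that difference was 0.28 and was called (adjusted p = 0.0102).

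Spint2 (Entrez 20733, chromosome 7 at 29256330 to 29282059) was at 134 and 147 FPKM in the heterozygous DMSO libraries, 142 and 152 in the heterozygous THZ1 libraries, 117 and 122 in the null DMSO libraries and 134 and 122 in the null THZ1 libraries. Under each treatment the null libraries were below the heterozygous ones. Under DMSO Spint2 was 1.18-fold lower in the null line (log2 difference -0.23 ± 0.06, limma adjusted p = 0.00282), a call lost with upper-quartile scaling (-0.08, adjusted p = 0.347). Under THZ1 the difference was -0.20 ± 0.06 (limma, adjusted p = 0.00545), but median-of-ratios and upper-quartile scaling gave 0.11 and 0.12, in the other direction. No change with THZ1 was called in the heterozygous line (0.07, 95% interval -0.06 to 0.19) or in the null line (0.10, 95% interval -0.03 to 0.22), although median-of-ratios and upper-quartile scaling (adjusted p = 0.000541 and 0.00287) and leaving out null THZ1 replicate 2 (0.0465) called the latter.

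St14 (Entrez 19143, chromosome 9 at 31088590 to 31131811) ran the opposite way from Spint1. It was at 8.90 and 9.03 FPKM in the heterozygous DMSO libraries and 9.07 and 9.46 under THZ1, and at 15.3 and 16.9 in the null DMSO libraries and 22.2 and 20.7 in the null THZ1 libraries. The lines did not overlap, and in the null line both THZ1 libraries were above both DMSO libraries. St14 was 1.80-fold higher in the null line under DMSO (log2 difference 0.78 ± 0.06, limma adjusted p = 2.64e-07) and 2.31-fold higher under THZ1 (1.13 ± 0.06, limma adjusted p = 3.44e-09). With THZ1 it rose by 0.39 ± 0.06 in the null line (limma, adjusted p = 0.000118), against a difference of 0.04 in the heterozygous line (95% interval -0.10 to 0.18, adjusted p = 0.672). The responses differed by 0.35 ± 0.09 (limma interaction, adjusted p = 0.0057).

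Set within each library, the transcripts of inhibitor and protease exchanged their order. There were 2.69 and 2.78 Spint1 FPKM for each St14 FPKM in the heterozygous DMSO libraries and 2.92 and 2.76 in the heterozygous THZ1 libraries. The ratio was 0.239 and 0.210 in the null DMSO libraries and 0.188 and 0.209 in the null THZ1 libraries, on average 12.2-fold and 13.8-fold below heterozygous DMSO. Spint2 stayed above St14 in every library, with ratios of 15.0 and 16.3 in the heterozygous DMSO libraries and 15.7 and 16.0 under THZ1. In the null line that ratio was 7.63 and 7.21 under DMSO and 6.03 and 5.92 under THZ1, or 2.11-fold and 2.62-fold below heterozygous DMSO. The summed transcripts of the 2 inhibitors thus remained in excess of St14 per length in all 8 libraries, while Spint1 alone did not in the null line. RNA levels do not give the amounts of the proteins.

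**Figure D3:**
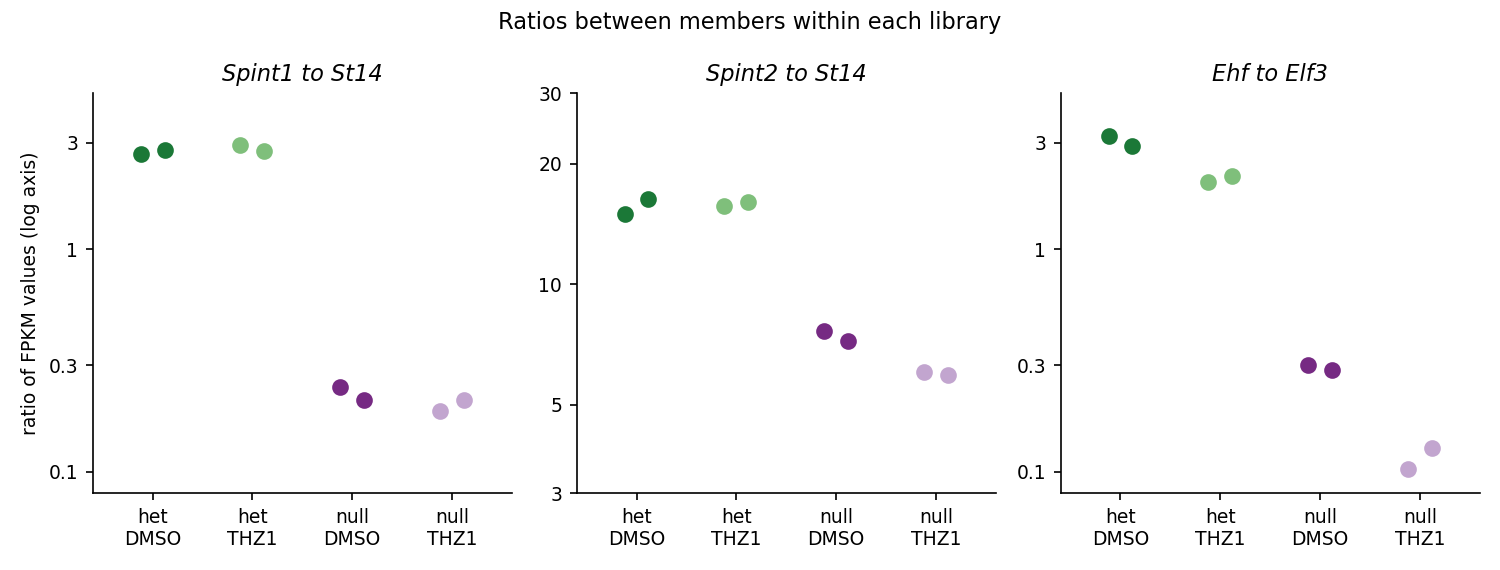
Ratio of FPKM values within a library (vertical axes, log scale) for Spint1 to St14, Spint2 to St14 and Ehf to Elf3. Each point is a library of the heterozygous (green) or null (purple) line under DMSO (dark) or THZ1 (light). The ratios of Spint1 to St14 and of Ehf to Elf3 are above 1 in all heterozygous and below 1 in all null libraries, while that of Spint2 to St14 stays above 5.

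Among all tested genes, Ehf and Spint1 stood at the far lower edge of the difference between the lines, whereas Elf3, Esrp2 and Spint2 lay within the bulk. Of the THZ1 responses in the null line, those of Esrp2 and Ehf were lower than the median of -0.17 over all tested genes, and those of the other 4 were above it. The level of all genes moved with the scaling: in the null line the median THZ1 response over all tested genes shifted by 0.2 with median-of-ratios scaling, and under THZ1 the median difference between the lines shifted by 0.28 with the same scaling. Relative to those shifts, the signs of the Ehf, Esrp2 and St14 responses to THZ1 in the null line, and of the Ehf, Spint1 and St14 differences between the lines, held under all 3 other scalings.

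**Figure D4:**
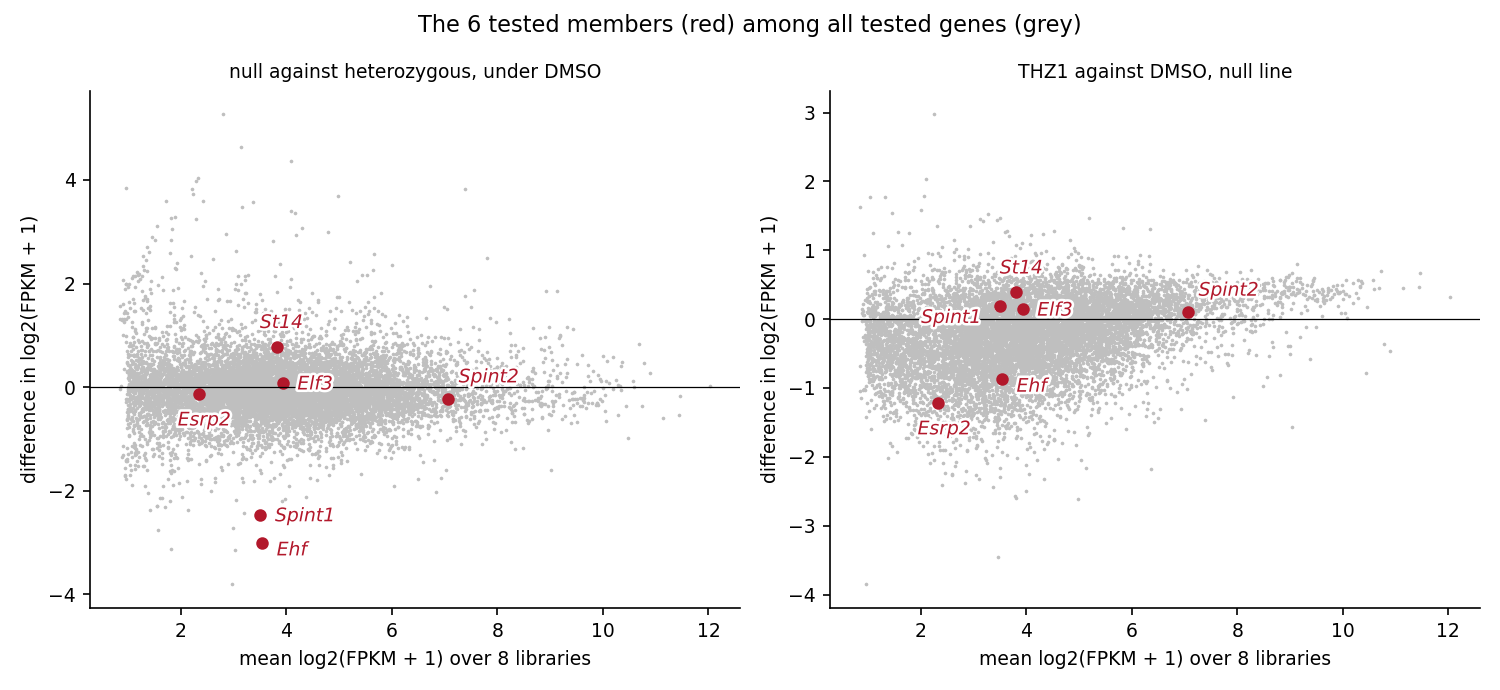
Difference in log2(FPKM + 1) (vertical axis) against the mean log2(FPKM + 1) over 8 libraries (horizontal axis) for the 10731 tested genes (grey) and the 6 tested members (red). Between the lines under DMSO, left, Ehf and Spint1 lie below nearly all genes. For THZ1 in the null line, right, Esrp2 and Ehf have the 472nd and the 1281st lowest values.

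Genes around these members were followed in lists of related factors, junction and polarity genes, the matriptase network, factors of the epithelial-mesenchymal transition (EMT), mesenchymal genes, and splicing factors with targets of the epithelial splicing switch. Over all tested genes, 29% were higher and 41% lower in the null line under DMSO, and 24.6% rose and 51.1% fell with THZ1 in the null line. Of 13 tested relatives of the epithelial factors, 8 were higher and 1 lower in the null line under DMSO, with a median log2 difference of 0.22 against -0.07 for all tested genes. Ets2 and Klf5, an ETS factor and a Krüppel-like factor of epithelial progenitors, were higher by 0.64 and 0.47 (limma, adjusted p = 2.9e-07 and 1.64e-05). Elf5, the neighbour and close relative of Ehf, was at or near 0 in every group. With THZ1 in the null line, 2 of the 13 rose and 5 fell, and with median-of-ratios scaling 6 rose and 2 fell. The split was 5 and 2 with upper-quartile and 2 and 8 with library-total scaling. Tfcp2, a member of the wider grainyhead family, fell from a mean of 10.3 to 2.0 FPKM there (log2 difference -1.92 ± 0.07, limma adjusted p = 3.56e-10), against 8.72 and 7.91 FPKM in the heterozygous line.

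Of 25 tested junction and polarity genes, 4 were higher and 13 lower in the null line under DMSO. These became 9 and 8 with upper-quartile scaling, 7 and 13 with median-of-ratios and 5 and 13 with library-total scaling. The 68.0% called was close to the 70% of all tested genes, so the count does not set this list apart. Lsr, which encodes the tricellular junction protein angulin-1, was at 42.5 and 45.6 FPKM in the heterozygous DMSO libraries and 14.0 and 15.1 in the null DMSO libraries (log2 difference -1.54, limma adjusted p = 1.11e-10). Ppl (periplakin, a desmosomal plaque protein) was lower, at a difference of -1.36, and the kidney-specific cadherin Cdh16 higher, at 0.53 (limma, adjusted p = 3.12e-09 and 2.98e-07). With THZ1 in the null line 4 rose and 12 fell, the claudin gene Cldn4 and the polarity gene Crb3 by 1.22 and 1.19 (limma, adjusted p = 8.71e-09 and 2.09e-07). Those counts were 9 and 7 with median-of-ratios, 5 and 7 with upper-quartile and 3 and 14 with library-total scaling. Cdh1 ranged from 0.10 to 0.42 FPKM and Epcam from 0.05 to 0.24 FPKM over the 8 libraries, so neither was tested.

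In the matriptase network, 10 of 26 genes were tested and 6 were higher and 2 lower in the null line under DMSO. The lower ones were F2rl1 and Met. F2rl1, the receptor that matriptase can activate, was at 53.9 and 54.2 FPKM in the heterozygous DMSO libraries and 17.9 and 17.5 in the null DMSO libraries (log2 difference -1.56 ± 0.05, limma adjusted p = 9.8e-11). Met, the receptor of HGF, was lower, at -0.32 ± 0.06 (limma, adjusted p = 0.000319), a call lost with upper-quartile scaling (adjusted p = 0.0506). Serpine2, a secreted serine protease inhibitor, was at 0 to 0.08 FPKM in the heterozygous libraries and at 38.8 to 54.0 in the null libraries. Hgfac, a protease that activates pro-HGF, was higher by 0.78 (limma, adjusted p = 6.62e-08). Prss8 (prostasin), which works with matriptase, was at 1.29 and 1.24 FPKM in the heterozygous DMSO libraries, 0.59 in both null DMSO libraries, and 0.09 and 0.27 in the null THZ1 libraries, and was below the level for testing. With THZ1 in the null line 4 genes of the network rose and 4 fell (6 and 3 with median-of-ratios, 5 and 3 with upper-quartile and 3 and 4 with library-total scaling). With THZ1 in the heterozygous line 1 rose and 5 fell, where 12.2% of all tested genes were called higher and 10.3% lower.

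Of 7 tested EMT factors, 2 were higher and 3 lower in the null line under DMSO. Zeb1, a repressor of epithelial genes, was at 7.32 and 7.08 FPKM in the heterozygous DMSO libraries and 18.0 and 17.2 in the null DMSO libraries (log2 difference 1.18 ± 0.06, limma adjusted p = 3.4e-09). Twist1 and Twist2 were lower, at differences of -0.55 and -0.85 (limma, adjusted p = 5.84e-05 and 8.94e-06), so the factors of this list did not move in 1 direction. Snai2 and Zeb2 stayed below 1 FPKM in every library. With THZ1 in the null line 5 of the 7 fell and none rose, where median-of-ratios and upper-quartile scaling each gave 2 that rose. Of 14 tested mesenchymal genes, 12 were higher and 1 lower in the null line under DMSO, with a median of 1.33. The smooth-muscle genes Acta2 and Myl9 were higher by 3.69 and 3.39 (limma, adjusted p = 1.08e-13 and 1.37e-11). Cnn1, also a smooth-muscle gene, went the other way. It was at 3.56 and 3.95 FPKM in the heterozygous DMSO libraries and 2.44 and 2.47 in the null DMSO libraries.

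Of 18 tested splicing regulators and targets, 7 were higher and 6 lower in the null line under DMSO (8 and 5 with median-of-ratios, 9 and 4 with upper-quartile scaling). With THZ1 in the null line 8 rose and 7 fell, a split that became 11 and 4 with median-of-ratios and 9 and 4 with upper-quartile scaling. Rbm47, a regulator of epithelial splicing, was lower in the null line, at a difference of -0.94 (limma, adjusted p = 2.31e-08), from 16.9 and 16.5 FPKM in the heterozygous DMSO libraries to 8.31 and 8.14. Ctnnd1 and Cd44, whose exon choice ESRP proteins control, were higher in total level by 1.39 and 0.34 (limma, adjusted p = 3.11e-11 and 4.85e-05). Levels per gene hold no information on which exons were used.

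**Figure D5:**
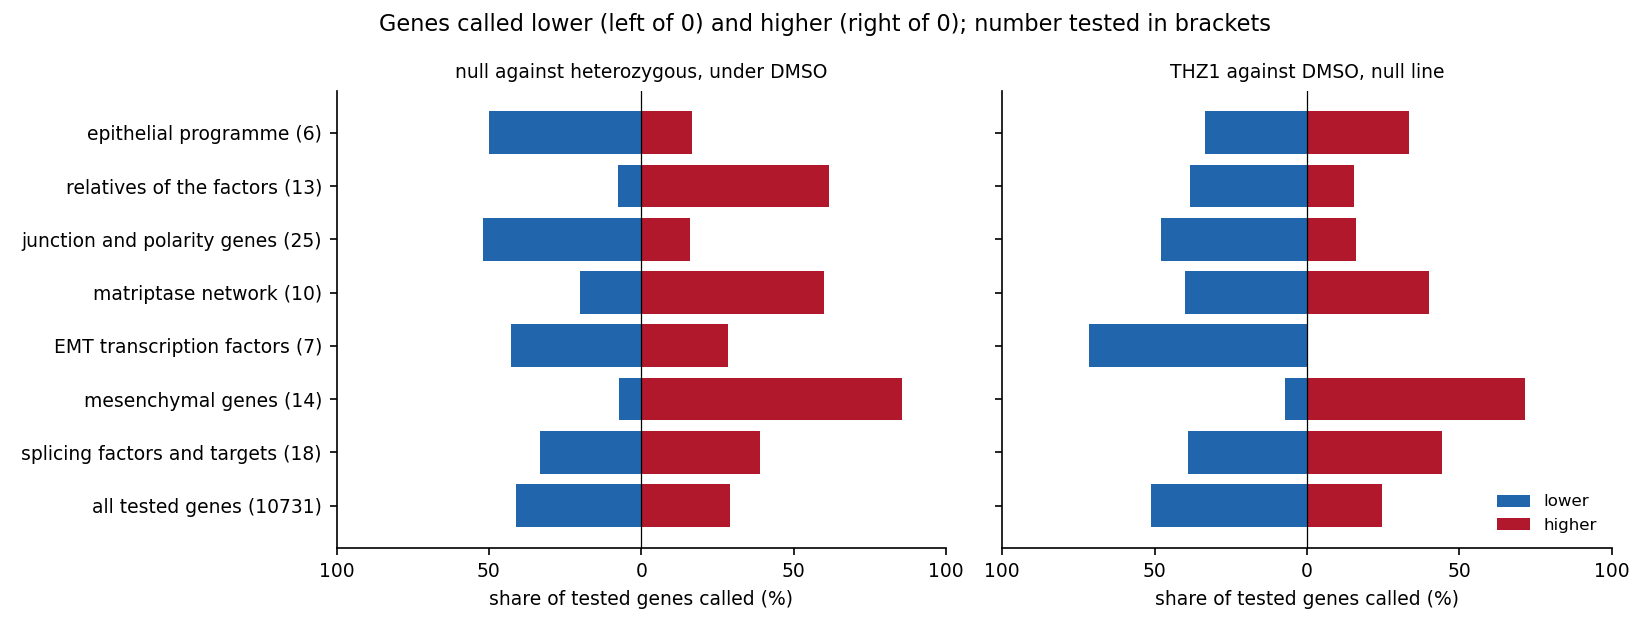
Share of tested genes called lower (blue, left of 0) or higher (red, right of 0) in each list, in percent of the tested genes, whose number stands in brackets. Under DMSO, left, 12 of 14 mesenchymal genes are higher in the null line and 13 of 25 junction and polarity genes lower. The junction split becomes 9 higher and 8 lower with upper-quartile scaling, while 13 stay lower with median-of-ratios and library-total scaling. For THZ1 in the null line, right, the splits of the factor relatives and junction genes turn, and those of the matriptase network and splicing genes tilt to higher, with median-of-ratios scaling.

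The genes whose profiles over the 8 libraries were most like each member were ranked by the root-mean-square difference of their centred log2(FPKM + 1) values among 8673 genes with a mean of at least 5 FPKM. For Spint1 they were Fgfr3, Ggt1 and Fgfbp1, at 0.0906, 0.134 and 0.149. Fgfr3 was at 8.38 FPKM on average in the heterozygous DMSO libraries and 0.825 in the null DMSO libraries. The closest gene to Ehf was Kif12, a kinesin gene, at a larger distance of 0.325, followed by Fbxo2 at 0.433 and Inmt at 0.445. Kif12 averaged 24.2 FPKM in heterozygous DMSO, 20.1 in heterozygous THZ1, 3.72 in null DMSO and 1.81 in null THZ1. The closest to Esrp2 were Stxbp4, Zfp62 and Zhx2, at 0.0805, 0.0816 and 0.0867. Bach1, Colgalt1 and Cpe were closest to St14, at 0.0395, 0.049 and 0.0498, Ist1, Sesn1 and Gna11 to Elf3, at 0.0306, 0.0419 and 0.0449, and Ppp1r14b, Eif4ebp1 and Arf5 to Spint2, at 0.0211, 0.035 and 0.0368. Flat profiles such as those of Elf3 and Spint2 have many close neighbours by this measure.

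On the genome, the genes that flank Ehf and Spint1 did not share the size of their difference. Apip and Pdhx, on the lower side of Ehf, were lower in the null DMSO libraries at differences of -0.41 and -0.42 (limma, adjusted p = 1.36e-05 and 2.21e-05), and Cat, on the other side beyond Elf5, differed by -0.08 (limma, adjusted p = 0.102). Next to Spint1, Zfyve19 was lower, at -0.37, and Vps18 higher, at 0.59 (limma, adjusted p = 0.00241 and 2.92e-06), while Ppp1r14d and Rhov were too low to test. Over all 10 members, 33 of the 40 flanking genes were tested, and 6 were higher and 15 lower in the null line under DMSO. Over all tested genes 29% were higher and 41% lower, so the count does not set the flanking genes apart. Their differences ran from -0.93 to 1.28.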

How the data were processed

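The deposited values are FPKM, 1 per gene in each library, made by the authors from Bowtie2 alignments to mm10, with DESeq2 also named, per the submitters' processing notes. Which counting tool, annotation and strand setting they used is not given in the sources used here. TRIzol RNA was enriched with oligo dT and made into libraries by BGI, per the labels' protocols. Symbols, positions and promoter sequences came from RefSeq GRCm38.p6 (18592 of 18631 identifiers matched, and 4 of the 10 members had a promoter). Groups and replicate numbers came from the labels. Values were tested as log2(FPKM + 1) with limma 3.58.1 in R 4.3.3, with a trend in the prior spread, 1 mean per group over all 8 libraries and 4 residual degrees of freedom. Genes with a mean of at least 1 FPKM were tested (10731), with Benjamini-Hochberg adjustment over all of them for each of 5 comparisons. The script was tested on simulated data with 200 changed genes. Depth was estimated from the steps between low FPKM values. A level that 3 fragments would give was taken as the floor, for counting error only. Named were all members, fixed relatives, up to 2 called genes per direction, list and comparison with the largest difference and a mean of at least 5 FPKM, the 3 most like genes and 2 flanking genes on each side, from which the text takes examples. The members and lists were chosen with earlier results of these data known. Alternatives were other pseudocounts, filters, scalings, spread models, fits on the compared groups, a replicate block and leaving out libraries.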

Additional observations from a re-analysis of the deposited data

Results flagged for a closer look

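The response to THZ1 differed between the lines, by the limma interaction test across all tested genes, for 3 of the 6 tested members. The share called over all tested genes was 60.2% (15.1% with a higher and 45.1% with a lower response in the null line). The log2 response of the null line minus that of the heterozygous line was -0.574 for Ehf (adjusted p = 0.000514). It was -0.884 for Esrp2 (adjusted p = 0.000384) and 0.347 for St14 (adjusted p = 0.0057). Both null THZ1 libraries were below both null DMSO libraries for Ehf and Esrp2 and above them for St14.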

How the results depend on the processing

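Of 565 values of single members under an alternative, 512 kept their direction and their side of the threshold, 28 lost a call, 12 gained one and 13 changed direction. The differences of Ehf, Spint1 and St14 between the lines, and the THZ1 responses of Ehf, Esrp2 and St14 in the null line with their interactions, kept direction and call in every alternative run for them. For THZ1 in the heterozygous line, the count of all genes called went from 2406 to 1308 with upper-quartile scaling, 1309 without a filter and 797 to 2534 when a library was left out (1153, 797 and 1048 without heterozygous DMSO replicate 1, heterozygous THZ1 replicate 1 and heterozygous THZ1 replicate 2), and the count of members called from 3 to 0 without a filter and 0 to 3 when a library was left out. The members with a different response between the lines went from 3 to 5 with median-of-ratios scaling, by Spint1 and Spint2 (0.28 and 0.27). Direction changed for Spint2 with THZ1 in the heterozygous line (-0.0045 to 0.1376 when a library was left out, the lowest without heterozygous DMSO replicate 1), and for the interactions of Elf3 (0.13 with median-of-ratios and 0.058 with upper-quartile scaling) and Spint2 (-0.0092 with library-total scaling, -0.0401, -0.0135, -2e-04 and -0.0307 without heterozygous DMSO replicate 2, heterozygous THZ1 replicate 1, null DMSO replicate 1 or null THZ1 replicate 1, in a range up to 0.102). Between the lines under THZ1 it changed for Elf3 (0.27 with median-of-ratios and 0.28 with upper-quartile scaling, -0.0764 to 0.0351 when a library was left out, the highest without heterozygous THZ1 replicate 1) and Spint2 (0.11 and 0.12 with these scalings). The cause of these changes was not tested. Among called genes the share that was higher depended on the scaling. It was 41.4% in the null line under DMSO as deposited, and 50.2% and 60.1% with median-of-ratios and upper-quartile scaling (46.1% with library totals). For THZ1 it was 54.3% in the heterozygous line (32.6% upper-quartile, 33.6% library totals) and 32.6% in the null line (52.5% median-of-ratios, 43.6% upper-quartile). For the interaction it was 25.1% (52.6% and 42.3%), and between the lines under THZ1 30.1% (49.6% and 50.1%). Library-total scaling took the call of Spint1 with THZ1 in the null line, as did fitting only the compared groups (adjusted p = 0.0693). A filter at 5 FPKM gave no value for Esrp2.

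With the replicate number as a block, 7502, 2387, 8112, 6461 and 8920 genes were called in the 5 comparisons and 4, 2, 4, 3 and 5 members, the loss being Esrp2 with THZ1 in the heterozygous line (adjusted p = 0.0546). Replicate deviations of same-numbered libraries correlated at -0.094 to 0.139 over 6 pairs of groups. Such correlations cannot tell whether same-numbered libraries also shared a culture or a day. Chosen after seeing the data, leaving out null DMSO replicate 1 and null THZ1 replicate 2 together gave 4, 3, 3, 3 and 4 members called. Grhl2 and Esrp1 stayed below the level of 3 fragments in every library, so no level could be read for them.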
